A study of Mus musculus with 16 samples.

Results

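The goblet lineage and mucus genes are 10 genes, taken by symbol from the 48440 genes listed for each intestinal segment. Of these, 4 are regulators of the lineage (Atoh1, Gfi1, Spdef and Creb3l1) and 6 are mucus products (Muc2, Tff3, Agr2, Fcgbp, Zg16 and Spink4). Goblet cells are secretory cells of the intestinal epithelium that build and renew the mucus layer. In the crypt, progenitors released from Notch signaling express Atoh1, the transcription factor that admits cells to the secretory lineages. Gfi1 acts below Atoh1 and steers secretory progenitors away from the enteroendocrine fate, Spdef drives the terminal maturation of goblet and Paneth cells, and Creb3l1 is a membrane-bound transcription factor of the secretory pathway. Mature goblet cells then load granules with the gel-forming mucin Muc2 and its partners.

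RNA-Seq was done on GFP-positive intestinal stem and progenitor cells sorted from 6 cm pieces of duodenum, jejunum and ileum of female Lgr5EGFP mice, in which the Lgr5 locus drives EGFP. A high-fat diet (60% fat) was given to every mouse over 16 weeks. Vertical sleeve gastrectomy (VSG), which removed 80% of the stomach, or a sham operation followed, and tissue was taken 4 weeks later, 15 minutes after a liquid meal. Ages of 8 to 16 weeks are stated for animals in general, with no stage of the experiment given. The 16 libraries came from 7 mice, with 4 VSG and 2 sham libraries for each of duodenum and jejunum and 2 of each for ileum. The duodenal and jejunal libraries came from the same 6 mice, and replicate numbers mark the mouse within each surgery group. All groups carried the Lgr5EGFP allele and the diet, so lean or unoperated cells were not compared here. Values are counts normalized by the authors within each segment, and n is the number of mice.

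Some libraries stood apart from the others. The summed normalized count was 33473755 to 34476853 in 5 jejunal libraries but 47103234 in jejunal sham 1, while duodenal libraries had 46867710 to 51745619 and ileal ones 21980005 to 25005464. Jejunal sham 1 was listed at 0 for Lgr5, the gene behind the sort, and at 7345 for the stem cell gene Olfm4, against 18164 to 33820 in the other 5 jejunal libraries. Ileal sham 1 was also listed at 0 for Lgr5. Jejunal VSG 1 held 196951 for Fabp6, an ileal bile acid-binding protein, against 15.8 to 313 in the other jejunal libraries. Jejunal changes are given below with and without sham 1.

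Promoter windows are shown for the members whose window held a searched motif. The RefSeq table of GRCm38.p6, which spans 250 bases before to 50 bases after each start, held 6 of the 10 members; Creb3l1, Tff3, Zg16 and Spink4 are named only. Capitals mark matches, on either strand, to CAGCTG or CAGATG (E-boxes, which basic helix-loop-helix factors such as Atoh1 bind), CGGATG (an Ets-type core, the family of Spdef), TGTTTAC (forkhead), ACGTG (a core bound by bZIP factors) or TATAAA (the TATA box). Muc2 is shown at chr7:141690090-141690389 on the plus strand, Fcgbp at chr7:28070986-28071285 on the plus strand and Spdef at chr17:27728902-27729201 on the minus strand.
Muc2: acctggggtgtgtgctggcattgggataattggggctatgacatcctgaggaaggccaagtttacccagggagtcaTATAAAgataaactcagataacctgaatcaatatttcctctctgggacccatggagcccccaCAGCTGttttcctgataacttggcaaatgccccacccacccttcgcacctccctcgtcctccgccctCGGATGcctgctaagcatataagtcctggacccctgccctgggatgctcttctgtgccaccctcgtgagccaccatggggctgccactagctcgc
Fcgbp: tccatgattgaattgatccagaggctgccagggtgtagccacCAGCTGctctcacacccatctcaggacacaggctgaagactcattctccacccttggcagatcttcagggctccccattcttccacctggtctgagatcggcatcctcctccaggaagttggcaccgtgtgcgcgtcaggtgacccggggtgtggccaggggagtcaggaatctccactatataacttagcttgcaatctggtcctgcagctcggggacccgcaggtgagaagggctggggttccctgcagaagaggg
Spdef: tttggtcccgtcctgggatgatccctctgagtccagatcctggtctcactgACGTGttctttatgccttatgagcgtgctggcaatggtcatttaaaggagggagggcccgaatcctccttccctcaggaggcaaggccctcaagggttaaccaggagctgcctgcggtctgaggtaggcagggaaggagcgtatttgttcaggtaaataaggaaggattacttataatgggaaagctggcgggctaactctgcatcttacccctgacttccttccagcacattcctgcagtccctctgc
The Muc2 window held CAGCTG 112 bases, CGGATG 45 bases and TATAAA 174 bases before the start. The Fcgbp window held CAGCTG 208 bases before the start, and the Spdef window held ACGTG 199 bases before it. The windows of Atoh1, Gfi1 and Agr2 held none of the 6 motifs. Among 32851 promoter windows of the same length, 16.3% held CAGCTG, 5.997% held CGGATG, 19.62% held ACGTG and 13.62% held TATAAA, so none of these letters is rare. A match is a description of the letters and no binding was measured. Whether the TATAAA letters in the Muc2 window serve as its TATA box was not tested.

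All 10 members were detected in the sorted cells of every segment, though Gfi1 was listed at 0 in 1 duodenal library and Atoh1 and Gfi1 in some ileal ones, with median levels of the products far above those of the regulators. Per kilobase of exon, the highest duodenal member was Tff3, a trefoil peptide that protects and repairs the surface, with a median of 39962 and a range of 24887 to 59904 over 6 libraries. Spink4, a Kazal-type peptide of goblet granules, followed at 21908, and Zg16, a lectin-like protein that keeps bacteria off the surface, at 10669. Fcgbp, a large protein that is bound to Muc2 in the mucus gel, was at 9435 and Agr2, a disulfide isomerase needed to fold Muc2, at 7368. Muc2 itself was at 1916 per kilobase, where the annotated exons span 7127 bases of a locus that GENCODE tags as fragmented, so its level per kilobase is uncertain. The library ranges of neighbors in this order overlapped, except that the lowest Agr2 library, at 3185, lay above the highest Muc2 library, at 2945. The regulators ran from 524 for Creb3l1 through 489 for Spdef and 300.0 for Atoh1 to 34.7 for Gfi1. The jejunal order was the same except that Agr2 passed Fcgbp, and the ileum was led by Zg16 at 17412 per kilobase ahead of Tff3 at 12902.

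**Figure D1:**
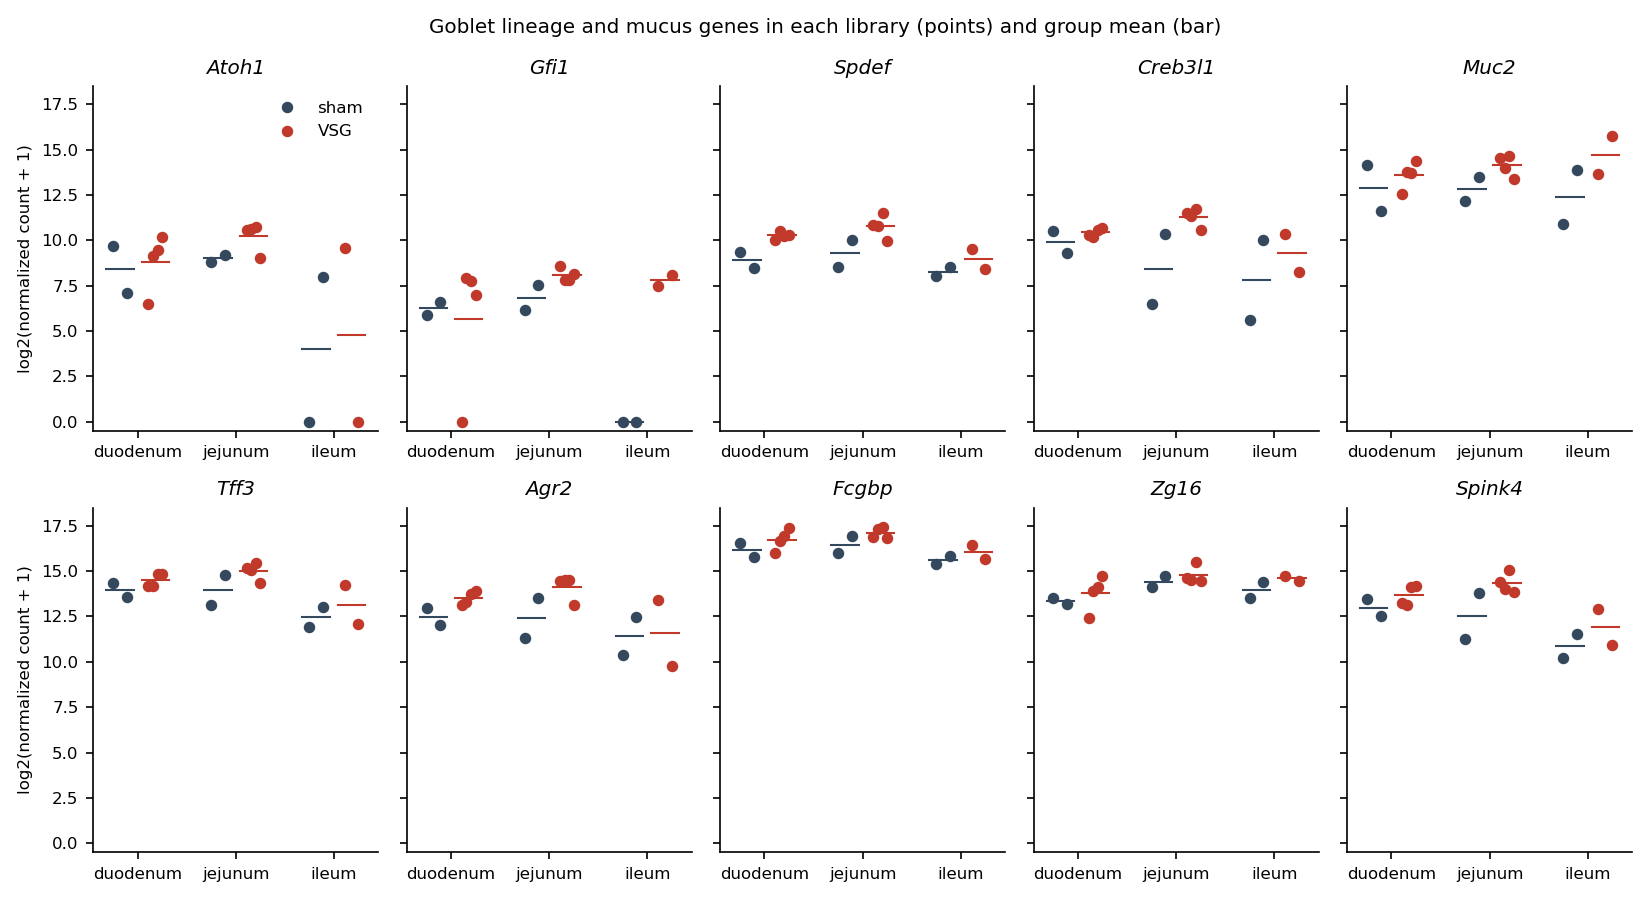
Normalized counts of the 10 members on the log2(normalized count + 1) scale, with 1 point for each library and a bar at each group's mean, for sham and VSG libraries of 3 segments. The group means of the products sit above those of the regulators in each segment, the jejunal VSG points lie mostly above the sham points, and points at 0 are Atoh1 and Gfi1 values listed at 0.

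In the duodenum, Spdef and Agr2 were higher in all 4 VSG libraries than in either sham library, and the other members overlapped between groups. Spdef (17:27714352-27728955, minus strand) was at 1048, 1462, 1205 and 1261 normalized counts in VSG 1 to 4 and at 647 and 349 in sham 1 and 2. Its sham mean of 498 ± 211 (SD, n = 2) stood against a VSG mean of 1244 ± 171 (SD, n = 4). The log2 fold change was 1.38 with an SE of 0.41 and a 95% interval of 0.46 to 2.29, at an unadjusted p of 0.00781 and an adjusted p of 0.533 with limma. The exact permutation test gave 0.0667, which is the lowest p that 4 against 2 libraries allow, so no member could pass 0.05 by that test in this segment or in the jejunum. Agr2 (12:35992907-36004087, plus strand) was at 8830, 10194, 13685 and 15154 in VSG 1 to 4 and at 7871 and 4112 in the sham libraries, with a log2 fold change of 1.04 and an SE of 0.32. The groups thus did not overlap for Agr2 or for Spdef, while the unadjusted p for Agr2 was 0.00965 and the adjusted p 0.555 with limma. Without sham 2 the log2 fold change of Agr2 was 0.57 at an unadjusted p of 0.179, and that of Spdef 0.93 at 0.0303.

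No other regulator separated the duodenal groups. Atoh1 (6:64729125-64731245, plus strand) was at 88.7, 554, 718 and 1179 in VSG 1 to 4 and at 829 and 138 in sham 1 and 2. The Atoh1 values spread over more than the difference between the groups, with a log2 fold change of 0.41 and an SE of 1.09. Gfi1 (5:107716657-107726036, minus strand) was listed at 0 in VSG 1 and at 246, 217 and 125 in VSG 2 to 4, against 58.2 and 96.3 in sham. Its direction therefore depended on the library listed at 0 and on the pseudocount, with a log2 fold change of -0.57 that became 1.32 without VSG 1. Creb3l1 (2:91982328-92024502, minus strand) was at 1271, 1152, 1515 and 1648 after VSG and at 1459 and 622 after sham, with a log2 fold change of 0.54 and an SE of 0.41.

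The other 5 duodenal products were higher on average after VSG, with groups that overlapped and unadjusted p-values above 0.05. Muc2 (7:141690340-141754693, plus strand) was at 6079, 13877, 13436 and 20991 in VSG 1 to 4 and at 17869 and 3081 in sham 1 and 2, so that the sham values alone covered most of the VSG range. Fcgbp (7:28071236-28120862, plus strand), the most abundant member by count, was at 64785, 101383, 125058 and 172221 after VSG and at 96699 and 56064 after sham. Tff3 (17:31125306-31129646, minus strand), Zg16 (7:127050156-127087328, minus strand) and Spink4 (4:40920052-40931395, plus strand) had log2 fold changes of 0.53, 0.44 and 0.69. Duodenal VSG 4 was the highest library for all 6 products and for 8 members, and sham 2 the lowest for 7 members. Without sham 2, 6 of the 10 members were higher after VSG, and Muc2 had a log2 fold change of -0.52 and Atoh1 of -0.87; without sham 1 the values were 2.01 and 1.70.

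To be called, a gene needed a mean above 50, a log2 fold change beyond 0.5 in either direction, and limma p-values under 0.05 unadjusted and under 0.2 adjusted. In the duodenum 0 of the 10 members were called, against 0.0237% of all 16867 genes tested. An unadjusted p under 0.05 with a higher level after VSG was found for 2 members, Spdef and Agr2, against 2.79% of all genes. Every VSG library lay above every sham library for the same 2 members, against 6.44% of all genes. The log2 fold change was above 0 for 9 of 10 members, against 50.7% of all genes. The median log2 fold change was 0.48 over the regulators and 0.63 over the products, beside 0.01 over all genes tested. Without sham 1, with sham 2 alone standing for the sham group, the log2 fold change of Spdef was 1.82.

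In the jejunum, all 10 members were higher on average after VSG, with log2 fold changes from 0.35 for Zg16 to 2.86 for Creb3l1, and the size rested on sham 1. Jejunal sham 1 was the lowest of the 6 libraries for every member. Creb3l1 was at 2927, 2601, 3320 and 1504 in VSG 1 to 4, at 1318 in sham 2 and at 88.2 in sham 1. The groups did not overlap, the unadjusted p was 0.00875 and the adjusted p was 0.760 with limma. Without sham 1 the log2 fold change of Creb3l1 was 0.91, at an unadjusted p of 0.132.

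The remaining jejunal regulators were also lowest in sham 1. Spdef was at 1827, 1791, 2893 and 1006 after VSG and at 373 and 1026 after sham, a log2 fold change of 1.50 with an SE of 0.57, and VSG 4 lay just below sham 2. Without sham 1 the log2 fold change of Spdef was 0.78, at an unadjusted p of 0.263. Atoh1 was at 1512, 1556, 1677 and 529 after VSG and at 450.1 and 594 after sham, a log2 fold change of 1.22 with an SE of 0.59. For Atoh1, 3 VSG libraries lay well above both sham libraries and VSG 4 lay between them, and the log2 fold change without sham 1 was 1.02. Gfi1 was at 382, 226, 220.0 and 286 after VSG and at 69.4 and 185 after sham, with every VSG library above both. Its log2 fold change was 1.25 with an SE of 1.07, and it was 0.55 without sham 1.

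Among the jejunal products, Spink4 separated the groups, and Muc2, Agr2 and Tff3 overlapped through VSG 4. Spink4 was at 21490, 16518, 33585 and 14934 after VSG and at 2409 and 14198 after sham, a log2 fold change of 1.81 with an SE of 0.62 that was 0.53 without sham 1. Agr2 was at 22511, 23011, 23568 and 8815 after VSG and at 2562 and 11608 after sham, a log2 fold change of 1.73 with an SE of 0.60 that was 0.64 without sham 1. Muc2 was at 23707, 16029, 25240 and 10719 after VSG and at 4604 and 11497 after sham, a log2 fold change of 1.30 with an SE of 0.47 that was 0.64 without sham 1. For Agr2, Muc2 and Tff3, VSG 4 was below sham 2 and the other 3 VSG libraries were above it. The log2 fold changes of Tff3, Fcgbp and Zg16 were 1.05, 0.66 and 0.35, and without sham 1 they were 0.23, 0.19 and 0.05. Zg16 was at 25524, 22953, 46453 and 22326 after VSG and at 17718 and 26966 after sham, so only VSG 3 was above both sham libraries.

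In the jejunum 0 of the 10 members were called, against 0.0126% of 15857 genes tested. An unadjusted p under 0.05 with a higher level after VSG was found for 5 members (Spdef, Creb3l1, Muc2, Agr2 and Spink4), against 3.63% of all genes. Every VSG library lay above every sham library for 3 members (Gfi1, Creb3l1 and Spink4), against 6.59% of all genes. The log2 fold change was above 0 for 10 of 10 members, against 55% of all genes. The median log2 fold change was 1.38 over the regulators and 1.18 over the products, beside 0.11 over all genes. Without sham 1, 0 members had an unadjusted p under 0.05 and the medians were 0.84 for the regulators and 0.38 for the products, all 10 members still being higher. Without sham 2 instead, 8 members were called, in a fit that called 2710 genes in all and in which sham 1 alone stood for the sham group. With sham 1 and VSG 1 both left out, a setting chosen after the values were seen, the medians were 0.80 and 0.38. In these bulk libraries, fewer goblet lineage cells and less RNA per cell cannot be told apart.

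**Figure D2:**
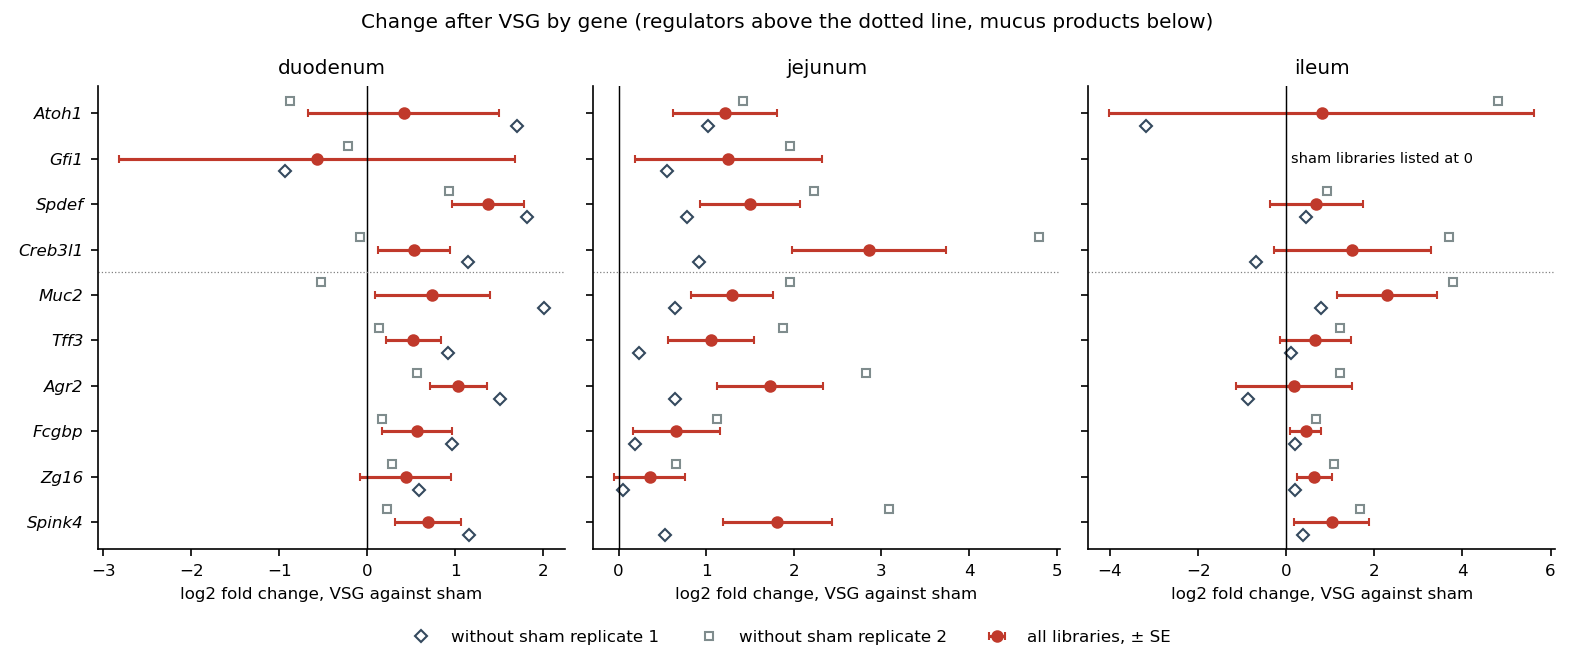
Log2 fold change of VSG against sham for each member and segment (horizontal axis), with filled circles for all libraries and bars of 1 SE, and open symbols for the fits without sham replicate 1 or sham replicate 2. In the jejunum every member is above 0, from 0.35 to 2.86, and each open diamond without sham 1 lies closer to 0.

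In the ileum, with 2 libraries against 2, the spread within groups was wider than the difference for most members, and the smallest exact permutation p was 0.333. Gfi1 was at 179 and 271 in VSG 4 and VSG 5 and was listed at 0 in both sham libraries, so no fold is given. Zg16 was at 27175 and 22375 after VSG and at 11677 and 21398 after sham, a log2 fold change of 0.64 with an SE of 0.39. For Gfi1 and Zg16 both VSG libraries lay above both sham libraries. Atoh1 was at 772 in VSG 4 and 253 in sham 2 and was listed at 0 in VSG 5 and sham 1. Muc2 was at 12690 and 54069 after VSG and at 1912 and 15046 after sham, a log2 fold change of 2.29 with an SE of 1.13 that was 0.80 without sham 1 and 3.78 without sham 2. Ileal sham 1 was the lowest library for 7 members and the one listed at 0 for Lgr5.

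Of the 10 ileal members 0 were called, against 0% of 13853 genes tested. An unadjusted p under 0.05 with a higher level after VSG was found for 1 member, Gfi1, against 2.09% of all genes. Gfi1 passed the filter on low values only through its VSG libraries, and its unadjusted p of 0.0496 was 0.0674 with a pseudocount of 10, so this count says nothing of the members. Every VSG library lay above every sham library for 2 members, against 17% of all genes. The log2 fold change was above 0 for 10 of 10 members, against 57% of all genes. The median was 1.15 over the regulators and 0.65 over the products, beside 0.24 over all genes. Gfi1 also enters this regulator median and the counts of separated members and of changes above 0, so these hold the same limit. The log2 fold changes of Atoh1, Spdef and Creb3l1 were 0.80, 0.69 and 1.50.

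With all mice, no difference between the jejunal and the duodenal change was detected for any member. The difference was tested on each mouse's jejunal minus duodenal log2 value, over 6 mice. Creb3l1 had the largest difference of change among the members, 2.32 with an SE of 1.23 and a 95% interval of -0.49 to 5.13, at an unadjusted p of 0.0940 and an adjusted p of 0.948 with limma. For Spdef the difference was 0.13 with an interval of -1.71 to 1.97. No member had an unadjusted p under 0.05, while 604 of 14718 genes did. Without sham 2, in a fit in which 1853 of 14506 genes had such a p, 5 members did, all with the larger change in the jejunum: Creb3l1 (0.000395), Spink4 (0.00209), Tff3 (0.0275), Agr2 (0.0283) and Muc2 (0.0419). Without sham 1, 0 members did, and the difference was below 0 for all members but Gfi1. The intervals are wide, so changes of the same size in both segments and changes that differ by several log2 units both lie within them.

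Regulators and products were high and low in much the same libraries. The mean log2 level of the 6 products ran from 13.11 to 14.90 over duodenal libraries, and that of the 4 regulators from 6.71 to 9.54. In the jejunum the products ran from 12.99 to 15.42 and the regulators from 7.50 to 10.42. The mean of the products minus the mean of the regulators was 5.49 and 5.25 in jejunal sham 1 and 2 and ran from 4.65 to 4.996 after VSG, so the groups did not overlap, with a difference of -0.56. In the duodenum it was 4.71 to 6.88 after VSG and 5.25 and 5.30 after sham, where the highest value was VSG 1, the library with Gfi1 at 0. The 6 products together made up 0.239%, 0.356%, 0.463% and 0.604% of the summed count in duodenal VSG 1 to 4 and 0.321% and 0.189% in sham. In the jejunum they made up 0.755%, 0.799%, 1.01% and 0.566% after VSG and 0.214% and 0.640% after sham, where sham 1 was lowest and sham 2 was inside the VSG range. In the ileum the shares were 0.750% and 0.618% after VSG and 0.249% and 0.499% after sham.

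**Figure D3:**
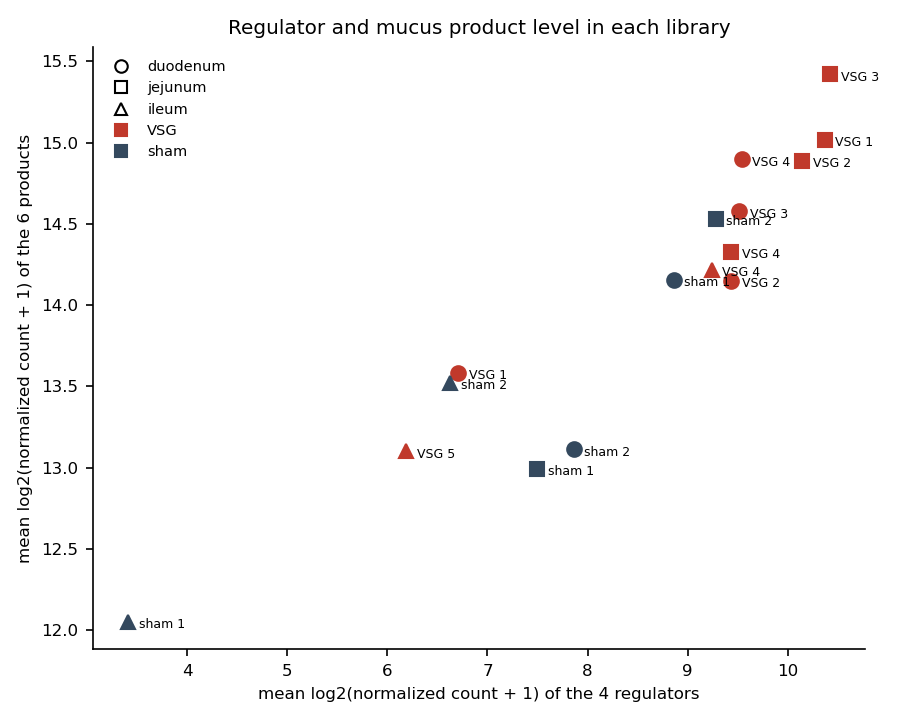
Mean log2(normalized count + 1) of the 6 products (vertical axis) against that of the 4 regulators (horizontal axis), with 1 point for each of the 16 libraries, shaped by segment and colored by surgery. Libraries with low regulators also have low products, ileal sham 1 lying lowest on both, but regulators listed at 0 pull several points left.

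The correlation of each regulator with each product was computed over the 6 duodenal and the 6 jejunal libraries. Pearson's r was positive for all 24 pairs in each segment, with a median of 0.71 in the duodenum and 0.87 in the jejunum. By exact permutation, 10 duodenal and 15 jejunal pairs had an unadjusted p under 0.05, and 5 and 15 had an adjusted p under 0.05 after Benjamini-Hochberg adjustment over 48 pairs. Of all pairs of the 6 products with genes outside the members, 2.93% in the duodenum and 5.76% in the jejunum had a positive r at an unadjusted exact permutation p under 0.05, and 52.4% and 54.7% had a positive r. The highest r in each segment was that of Creb3l1, with Tff3 in the duodenum (0.916) and with Spink4 in the jejunum. In the jejunum, Spdef with Muc2 had r = 0.978 and rho = 1.000 with exact permutation p of 0.00139 and 0.00278, and adjusted p of 0.0111 and 0.0222. Creb3l1 with Spink4 had r = 0.980 and rho = 1.000 there, and r = 0.902 and rho = 1.000 in the duodenum, with the same exact permutation p values. Atoh1 had its highest r with Fcgbp in the duodenum, 0.905 with rho = 0.771 (exact permutation p of 0.0181 and 0.103, adjusted 0.0433 and 0.183). In the jejunum it was with Muc2, 0.886 with rho = 0.943 (exact permutation p of 0.00556 and 0.0167, adjusted 0.0205 and 0.0615).

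These correlations also ran within the surgery groups but partly rested on extreme libraries. Centred on each group's mean, the median r was 0.75 in the duodenum and 0.76 in the jejunum. Without the 2 libraries farthest from the regulator's median it was 0.51 and 0.65, with 22 and 16 pairs of 24 still positive. Without jejunal sham 1 the jejunal median was 0.78. Spdef with Muc2 in the jejunum kept r = 0.907 without the 2 farthest libraries, and Creb3l1 with Spink4 kept 0.878. The 8 jejunal pairs that were then negative were all 6 pairs of Gfi1, with a median r of -0.29, and Zg16 with Spdef and with Creb3l1. Products were tied to each other more closely than to the regulators, with a median r of 0.88 in the duodenum and 0.94 in the jejunum over 15 pairs. That ranking was not tested. Within a segment each library came from a different mouse, and all genes of a library share its depth.

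**Figure D4:**
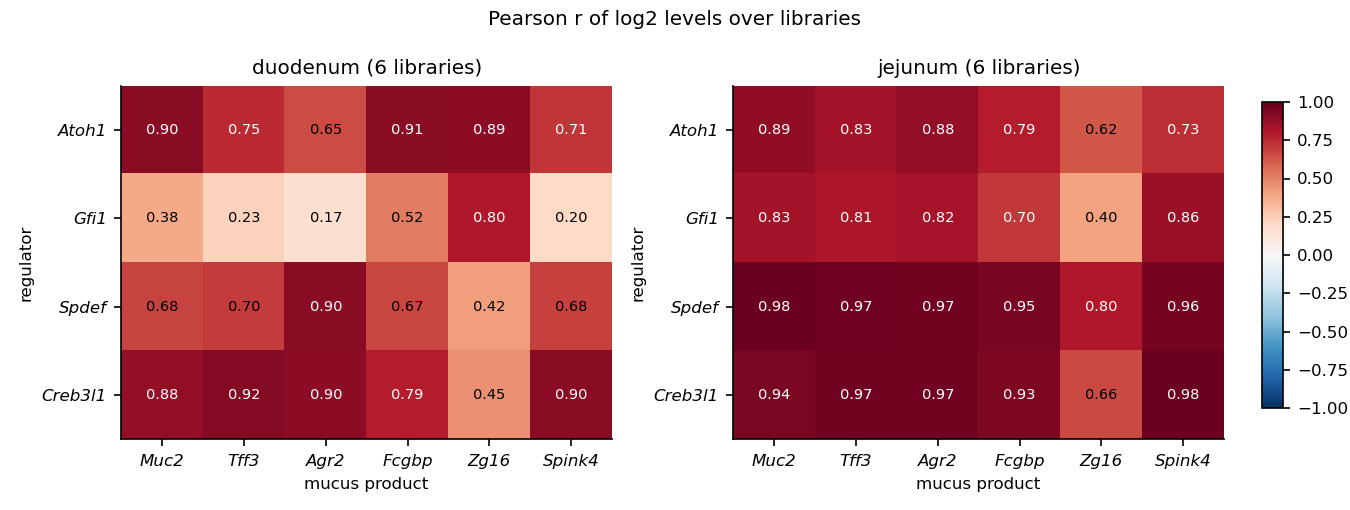
Pearson r over 6 duodenal and 6 jejunal libraries for each pair of 1 regulator (rows) and 1 product (columns), on a color scale from -1 to 1. All 48 values are positive, the Spdef and Creb3l1 rows reach 0.98, and the Gfi1 row in the duodenum falls to 0.17.

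The pattern of the members was also compared with that of every other gene with a mean above 50 in all 3 segments. Over the 16 libraries, centred on each segment's mean, the genes outside the members most like the mean of the 6 products were Txndc5 (r = 0.894), Cd24a, Rnase1, Ccl6, Slc35c1, Bace2, Rpn1 and Pcdhgc3 (r = 0.849), among 10712 genes compared. Those most like the mean of the 4 regulators were Kif3b (r = 0.897), Tmem184b, Ccl6, Lrrc26, Slc35c1, Mtmr9, Galnt4 and Itln1 (r = 0.852). Ccl6 and Slc35c1 stood in both. These r values have no p, since libraries of the same mouse are not independent. Among the members, Spink4 lay nearest to the product mean, at 0.950, and Muc2 was the product farthest from it, at 0.750. Each product is itself part of that mean, so these r values cannot be set beside those of genes outside the members.

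Lists of other genes, none of which holds a member, are described beside the goblet genes. The list of secretory fate and maturation factors also holds Neurog3 and the Notch pathway genes Notch1 and Hes1. A count of higher factors is therefore not a count of changes toward the goblet fate. In the jejunum, 20 of 21 other goblet products had a log2 fold change above 0, as did 19 of 20 mucin O-glycosylation genes, 17 of 21 genes of ER folding and export and 15 of 18 secretory fate and maturation factors, with 6, 7, 5 and 3 at an unadjusted p under 0.05 and 0 at an adjusted p under 0.2. Of all jejunal genes tested, 55% had a log2 fold change above 0, and 3.63% were higher at an unadjusted limma p under 0.05. The median log2 fold changes of the lists were 1.12, 0.77, 0.43 and 0.64, beside 0.11 over all genes. Without sham 1, 14 of 21, 16 of 20, 18 of 21 and 12 of 18 were above 0, with 2, 2, 0 and 0 at an unadjusted p under 0.05, and the medians were 0.27, 0.38, 0.21 and 0.23, beside -0.02 over all genes. Ccl9, a chemokine of crypt secretory cells, was at 2706, 2090, 5817 and 2756 in jejunal VSG 1 to 4 and at 671 and 856 in sham, with groups that did not overlap and a log2 fold change of 2.02 that was 1.85 without sham 1. Ern2, the goblet cell form of the ER stress sensor IRE1, was at 1362, 1586, 1904 and 855 after VSG and at 155 and 592 after sham, a log2 fold change of 2.17 that was 1.21 without sham 1. Galnt7, which acts in mucin O-glycosylation, had a log2 fold change of 0.89 with an SE of 0.32. For C1galt1, which extends mucin O-glycans, it was 0.94 with an SE of 0.34. Without sham 1 the log2 fold changes of Galnt7 and C1galt1 were 0.75 and 0.87. In the duodenum the other goblet products were evenly split, 11 higher and 11 lower, while 16 of 21 O-glycosylation genes, 15 of 21 ER genes and 13 of 18 factors were higher. Of all duodenal genes tested, 50.7% were higher. Fut2, which fucosylates mucin glycans, had a duodenal log2 fold change of 2.00 with an SE of 0.62 and every VSG library above both sham libraries. Scin, listed with the other goblet products, had a duodenal log2 fold change of -1.18 (SE 0.39), with every VSG library below both sham libraries. In the ileum 10 other goblet products were higher and 11 lower, with a median of -0.01 beside 0.24 over all genes. There, 13 of 21 O-glycosylation genes, 12 of 20 ER genes and 15 of 17 factors were higher, against 57% of all genes. Their medians were 0.18, 0.15 and 1.06, beside the same 0.24. Among the factors, Notch1 was at 378 and 453 in ileal VSG 4 and VSG 5 and was listed at 0 in both sham libraries.

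Markers of other cell types are given beside the members, and 0 of them had an adjusted p under 0.2 with limma in any segment. All 9 enterocyte markers, among them the brush border phosphatase Alpi, had a negative log2 fold change in both duodenum and jejunum, with 6 and 3 at an unadjusted p under 0.05, as had 5 of 9 in the ileum. Their summed normalized count was 309004 to 621253 after VSG and 717982 to 1068580 after sham in the duodenum. In the jejunum it was 516264 to 931302 after VSG, 813811 in sham 2 and 2161130 in sham 1, the library in which every member was lowest. All 8 jejunal Paneth markers and all 6 tuft markers were higher on average after VSG, with 2 and 3 at an unadjusted p under 0.05, and in the duodenum 6 of 8 and 6 of 6. Without sham 1, 3 of 8 Paneth, 4 of 6 tuft and 1 of 8 stem cell markers were higher in the jejunum and 8 of 9 enterocyte markers lower. With all libraries, higher means were also found for 6, 8 and 7 of the 8 stem cell markers in duodenum, jejunum and ileum, and for 8, 4 and 8 of the 9 enteroendocrine markers. Among markers tested, the same held for 5 of 7, 3 of 5 and 1 of 5 other mucins, 3 of 4, 3 of 3 and 2 of 3 immune genes and 2 of 7, 2 of 3 and 1 of 3 stromal or endothelial genes. It held for 0 of 6, 1 of 2 and 0 of 1 stomach and Brunner gland genes and for 5 of 5, 1 of 1 and 1 of 1 pancreas genes. The summed immune level, most of it the MHC class II chain gene Cd74, was 1851 in duodenal sham 2, the lowest library for 7 members, and 20079 to 57307 in the other duodenal libraries. The sort left out cells positive for the leukocyte antigen CD45 or the endothelial antigen CD31. The immune markers Cd3e and Cd79a were listed at 0 in every duodenal and ileal library, and Cd79a in every jejunal one. Ptprc, which encodes CD45, was at 276, 114, 1534 and 87.0 in duodenal VSG 1 to 4 and at 22.0 and 28.1 in sham 1 and 2, with groups that did not overlap, a log2 fold change of 3.31 and an unadjusted p of 0.0339. What part these cell types have in the members' values was not tested.

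**Figure D5:**
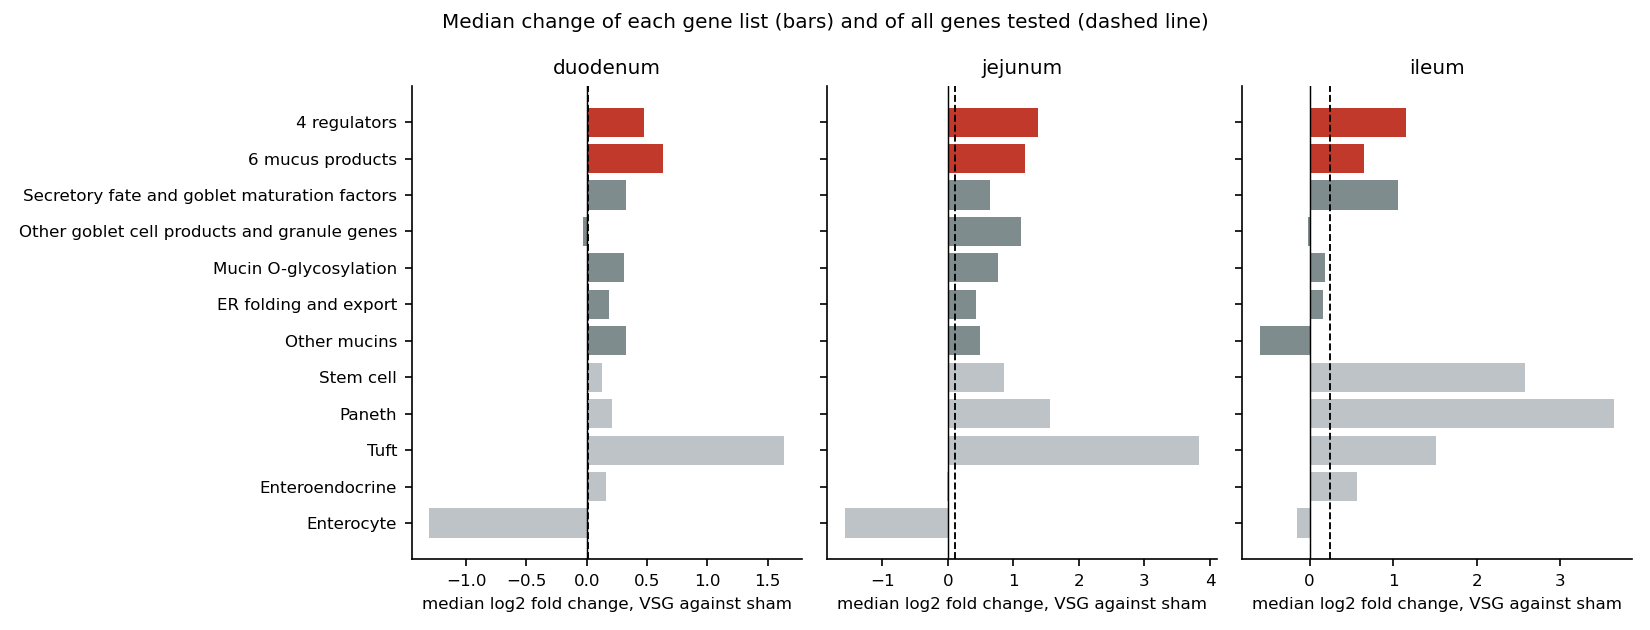
Median log2 fold change of VSG against sham (horizontal axis) of each gene list, with a separate scale for each segment. Red marks the 4 regulators and 6 products, dark gray the lists of other genes and light gray the markers of other epithelial cells. A dashed line marks the median of all genes tested. The jejunal medians of the regulators and products, 1.38 and 1.18, lie above the dashed line at 0.11. The jejunal Paneth and tuft medians, 1.55 and 3.83, lie higher still. The enterocyte medians lie below 0 in all 3 segments. The ileal regulator bar includes Gfi1, listed at 0 in both sham libraries.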

How the data were processed

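Sorted GFP-positive cells were sequenced as single-end 85 nt directional mRNA libraries. The authors removed libraries with low mapping (1 sham in each segment and 2 ileal VSG), aligned reads to mm10 with STAR 2.5.3a, quantified them with Salmon 0.6.0 and deposited signal values, which are DESeq2-normalized counts per gene and library for each segment. Between 37.8% and 49.0% of values came out as whole reads within 0.01, so read counts were not recovered and no count model was run; values in different segments were normalized separately. The authors also deposited log2 fold changes, standard errors and p-values of their own comparison, which were not used.

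Each segment was fitted with limma 3.58.1 (R 4.3.3), with a variance trend, on log2 values after adding 1, for genes whose mean exceeded 10, with Benjamini-Hochberg adjustment over all genes tested. Fold changes on this scale understate changes of genes with low values above 0. Where a library was listed at 0, the size depends on the added 1 and can be large. Jejunal Trpm5, listed at 0 in sham 1 and at 3543 in sham 2, had a log2 fold change of 5.93. The fit was tested on simulated data. Single values had two-sided exact permutation tests (15 splits for 4 against 2). The p-values rest on the spread between mice. VSG and sham mice with the same replicate number are different mice. Deviations of same-numbered libraries had r = -0.05 and -0.03. With 2 sham libraries the deviations mirror each other, so swapped numbers gave 0.05 and 0.03 and this check holds little information. Positions and lengths came from GENCODE M21, which matched 48058 identifiers.

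Gene lists without sham 1 were counted as an alternative chosen after the values were seen. The members and lists were chosen with earlier results of these data known. All members are named; from each list, up to 4 genes per segment were eligible, with an unadjusted p under 0.05 and groups that did not overlap, smallest p first, and the 8 genes most like each mean. Cell type lists were stem cell, Paneth, enteroendocrine, tuft, enterocyte, immune, stroma and endothelium, stomach and Brunner glands, and pancreas. Alternatives were pseudocounts of 0.5 and 10, no filter or a mean above 50, quantile normalization, equal totals, no variance trend, a replicate block and leaving out libraries.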

Additional observations from a re-analysis of the deposited data

Results flagged for a closer look

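In 20 groups of 4 libraries, 3 values lay farther from the rest of their group than Dixon's test allows, where chance gives about 1 in 20. Gfi1 in duodenal VSG 1 was listed at 0, against 125 to 246 in the other 3 VSG libraries. Atoh1 in jejunal VSG 4 was at 529, against 1512 to 1677 in the other 3. Agr2 in jejunal VSG 4 was at 8815, against 22511 to 23568 in the other 3.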

How the results depend on the processing

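Of the tested values that no statement leads with, 387 alternative values kept their direction and side of 0.05, 23 lost an unadjusted p under 0.05, 20 gained one and 30 changed sign. Of the values that answer a comparison, 21 were counted as moved and 187 were not, but some of the latter shifted widely or changed sign. The duodenal regulator median of 0.48 was -0.15 without sham 2 and 1.43 without sham 1. The ileal regulator median of 1.15, which includes Gfi1, was -0.13 without sham 1. The jejunal product median of 1.18 was 0.38 without sham 1. With a pseudocount of 10 the duodenal log2 fold change of Gfi1 was 0.15. With the replicate block, the duodenal changes were -0.61 for Atoh1 and -0.20 for Zg16, and 0 duodenal members had an unadjusted p under 0.05, where 2 did without it; the numbers do not pair mice. Without a variance trend, 1 duodenal and 1 jejunal member had an unadjusted limma p under 0.05, as did 843 of 16867 and 619 of 15857 genes. In that setting 1 ileal member (Gfi1) was called, in a fit that called 463 of 13853 genes. Without a filter, and with quantile normalization, 0 ileal members had an unadjusted p under 0.05. The jejunal products minus regulators changed by -0.11 with quantile normalization and -0.38 without VSG 1 and sham 1, where 0 members had an unadjusted p under 0.05. The cause was not tested. The called ileal member was Gfi1, listed at 0 in both sham libraries. With a pseudocount of 10 the ileal member with an unadjusted p under 0.05 was Muc2 (0.0481) in place of Gfi1.

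Leaving out each library in turn gave 1 (sham 2) to 4 (VSG 1) duodenal members with an unadjusted p under 0.05 and 0 to 1 called, 0 (sham 1) to 8 (sham 2) jejunal members and 0 to 8 called, and 0 to 1 called ileal members. In the duodenum the log2 fold changes ranged from -1.33 to 1.32 for Gfi1, -0.87 to 1.70 for Atoh1, -0.078 to 1.15 for Creb3l1 and -0.52 to 2.01 for Muc2. In the ileum they ranged from -3.99 to 5.60 for Atoh1, -0.43 to 1.75 for Tff3, -1.62 to 1.98 for Agr2 and -0.70 to 3.70 for Creb3l1, and the regulator median from -0.13 to 4.25. The difference of change between jejunum and duodenum ranged from -0.68 to 2.29 for Atoh1, -0.23 to 2.67 for Gfi1, -1.04 to 1.30 for Spdef, -0.24 to 4.88 for Creb3l1, -1.37 to 2.48 for Muc2, -0.69 to 1.74 for Tff3, -0.87 to 2.25 for Agr2, -0.77 to 0.96 for Fcgbp, -0.54 to 0.37 for Zg16 and -0.62 to 2.86 for Spink4. Of these 20 extremes, 18 left out sham 1 or sham 2.

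With 2 sham mice in each segment, a single library sets the size of most changes. Equal totals moved the median of all genes to 0.34 in the jejunum and 0.35 in the ileum, from 0.11 and 0.24. Depth in reads is not known from the deposited values.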

Other observations

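The ratio of Muc2 to Agr2 was 61.4 in ileal VSG 5 and 0.688 to 2.70 in the other 15 libraries, a comparison chosen after the values were seen. In ileal VSG 5, Muc2 was at 54069 and Tff3, Agr2 and Spink4 at 4276, 881 and 1920, while VSG 4 held 12690 for Muc2 and 19403, 10698 and 7626 for the same products. Muc2 was thus highest in the library in which Agr2 was lowest among the 4 ileal libraries. The ratio of Muc2 to Tff3 in that library was 12.6 and that of Zg16 to Agr2 was 25.4.

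The membrane mucin Muc4 was higher in every jejunal VSG library, at 1907, 1883, 2096 and 5302 against 800.5 and 655 in sham. The Paneth cell protease Mmp7 was at 5734, 6991, 5390 and 5368 after VSG and at 984 and 2472 after sham in the jejunum, a log2 fold change of 1.90 with an SE of 0.40 (1.24 without sham 1) and an adjusted p of 0.668 with limma. Trpm5, the tuft cell cation channel, was at 8034, 4506, 8880 and 6961 after VSG and at 2605 and 1342 after sham in the duodenum. None of these was called.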
